A study of Mus musculus with 48 samples.

Results

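Endothelial cells of the mouse heart were compared at 6 weeks of age (6W) and at postnatal day 1 (P1) by RNA sequencing. The cells were the TdTomato- fraction of hearts of Abcg2CreERT;ROSATdTomato mice, and the comparison held 9 libraries, 5 of 6W Heart EC TdTomato- (libraries 1, 2, 4, 5 and 6) and 4 of P1 Heart EC TdTomato- (libraries 2, 3, 4 and 5), of the 48 libraries and 10 groups of the series. Libraries were chosen by the source name in their labels, and expression values are the deposited counts per gene. In these mice, cells in which the Abcg2 gene drives a tamoxifen-dependent Cre recombinase switch on the red protein TdTomato from the ROSA locus once tamoxifen is given. All animals of both ages carried both alleles and received tamoxifen at 50 mg/kg intraperitoneally 24 h before collection. Cells were sorted as CD31+CD45-Ter119-, that is, as positive for CD31, a protein of the endothelial surface, and negative for CD45 and Ter119, which mark leukocytes and red blood cells. The TdTomato- cells are those that the reporter left unmarked, which the submitters name mature endothelial cells. Whether 1 animal or several gave each library is not in the labels, so the p-values rest on the spread among the libraries, which may be technical in part. P1 library 1 was left out, because the labels record that its matched TdTomato+ library failed quality control and that both were removed from downstream analysis.

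The heart endothelium is formed by capillaries between the muscle fibres, by coronary arteries and veins, by lymphatic vessels and by the endocardium that lines the chambers. Around birth the coronary bed still grows by division and sprouting of endothelial cells, while in the adult these cells divide rarely. The adult heart burns mainly fatty acids, which capillary endothelial cells release from lipoproteins, take up and pass to the muscle. The comparison asks how the RNA of these cells differs between the newborn and the young adult heart.

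Each of the 9 libraries held between 17837677 and 23656527 counts in total and had at least 1 count in 13835 to 14405 genes. The ages stood apart on the first principal component of the log2 values, which held 69.4% of the variance, and the second (7.2%) split the 6W libraries by sequencing run. The 4 P1 libraries and 6W libraries 1, 2 and 4 were sequenced in 1 run from 1 ng of RNA, and 6W libraries 5 and 6 in another from 0.7 ng. Mitochondrial reads made up 0.550 to 0.657% at P1, 0.956 to 1.40% in 6W libraries 1, 2 and 4 and 3.48 to 3.54% in 6W libraries 5 and 6. The RNA integrity number, which falls as RNA degrades, was 8.0 to 9.2 at P1 and 9.0 to 9.7 at 6W. Ddx3y RNA, from the Y chromosome, was found in 6W libraries 1, 2 and 6 and in P1 library 5. Xist RNA, a mark of female cells, was found in 6W libraries 4 and 5 and in all 4 P1 libraries, so P1 library 5 held both. The tissue field of 6W libraries 5 and 6 says muscle where their titles and source names say heart. Their summed level of 19 Hox genes, taken as limb position genes, was 24.5 to 27.6 CPM (a count relative to the total of its library). On a common scaling this was within the 21.3 to 39.4 CPM of all 9 heart libraries. It was below the 154 to 301 CPM of the 9 TdTomato- muscle libraries.

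Of 13324 genes tested, 6788 (50.9%) differed between the ages at an adjusted p below 0.05 in the quasi-likelihood test of edgeR, with p-values adjusted by the Benjamini-Hochberg method, which is the threshold used throughout. At 6W, 3339 genes were higher (25.06%) and 3449 lower (25.9%). Of these, 1550 (11.6%) were at least 2-fold higher and 1727 (13.0%) at least 2-fold lower. Called genes whose libraries did not overlap between the ages numbered 5537 (41.6%). About every second gene was therefore called, and each count of a gene list below is to be read against these shares. Values are CPM after TMM scaling, which sets libraries equal over the bulk of their genes, and fold changes are 6W over P1. With libraries scaled by total count alone, the median log2 fold change moved from -0.02 to -0.27 and the calls split into 2226 higher and 5155 lower, so changes are relative to the bulk of genes.

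Endothelial identity genes were expressed at both ages and stood higher at 6W. All 22 pan-endothelial markers reached 10 CPM at both ages, 16 rose and none fell, with a median log2 fold change of 0.85 against -0.02 over all genes tested. Within the run shared by both ages 16 rose and 1 fell, and under total-count scaling 13 rose and 1 fell (median 0.60). Their summed level was 15335 to 17176 CPM at P1 and 28289.8 to 32785 CPM at 6W, without overlap. Pecam1, which encodes the CD31 protein used in the sort, was at 1297, 1292, 1231 and 1366 CPM at P1 and 2083, 2040.2, 2708, 2316 and 2377 CPM at 6W. Every 6W library exceeded every P1 library, and the gene rose 1.78-fold (log2 fold change 0.83 ± 0.10 SE, adjusted p = 2.41e-05). The sphingosine 1-phosphate receptor S1pr1, which stabilises vessels, rose from 544 to 2326 CPM on average (log2 fold change 2.10 ± 0.16 SE, adjusted p = 2.44e-07). Ptprb, a phosphatase that restrains the receptor Tie2, rose from 372 to 1434 CPM (log2 fold change 1.95 ± 0.14 SE, adjusted p = 2.31e-07). Kdr, the main receptor for VEGF-A, was at 1268, 1430.1, 1112 and 1373 CPM at P1 and 1915, 2467, 2709, 2649 and 3251 CPM at 6W and rose 2.00-fold (log2 fold change 1.00 ± 0.14 SE, adjusted p = 7.09e-05). Cdh5, the adherens junction cadherin, was at 724 to 905 CPM at P1 and 849 to 1289 CPM at 6W, where the ages overlap, and its log2 fold change was 0.35 ± 0.13 SE (adjusted p = 0.0424). That call was lost in 12 of 22 alternatives, among them total-count scaling, where the log2 fold change was 0.09.

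Abcg2, the efflux transporter whose promoter drives the Cre, was measured in these unmarked cells at 122, 114, 113 and 106 CPM at P1 and 181, 178, 202, 203 and 192 CPM at 6W (mm10 chr6:58596672-58692451, plus strand). Among the libraries used the ages did not overlap, and Abcg2 rose 1.68-fold (log2 fold change 0.75 ± 0.09 SE, adjusted p = 1.82e-05). On CPM without TMM scaling, P1 library 1, left out here, held 183 CPM of Abcg2, within the 165 to 189 CPM of 6W. The other P1 libraries held 118 to 131 CPM. Abcg2 stayed called with P1 library 1 included. Of 10 tested efflux transporters of the ABC family, 6 rose and 2 fell (median 0.57). Abcb1a and Abcb1b, which encode the P-glycoproteins of the mouse, rose from 26.2 to 187 CPM (log2 fold change 2.83 ± 0.10 SE, adjusted p = 8.32e-10) and from 10.0 to 41.8 CPM (log2 fold change 2.06 ± 0.21 SE, adjusted p = 4.59e-06). Abcc4, an exporter of cyclic nucleotides and drugs, rose from 19.1 to 117 CPM (log2 fold change 2.62 ± 0.17 SE, adjusted p = 9.13e-08). The 2 that fell were Abcc3 (log2 fold change -2.64) and the cholesterol exporter Abcg1 (-0.52). Here and below, genes given to complete a count of 5 or fewer were chosen after their values were seen.

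The cell cycle genes fell together at 6W. All 30 genes of G2 phase and mitosis fell, with log2 fold changes from -6.09 to -2.86 and a median of -4.58. No library of 1 age overlapped the other for any of them. Their summed level was 1295 to 1959 CPM at P1 and 78.2 to 127 CPM at 6W. Mki67, the proliferation marker Ki-67, was at 135, 83.5, 128 and 104 CPM at P1 and 6.18, 4.99, 3.44, 1.13 and 0.793 CPM at 6W. It fell in every 6W library, 33.13-fold on average (log2 fold change -5.05 ± 0.44 SE, adjusted p = 9.11e-07), and within 6W it was lower in the libraries of the other run. Birc5, the mitotic survivin, was at 97.4, 65.98, 97.1 and 87.7 CPM at P1 and 1.78, 1.34, 1.55, 1.84 and 0.854 CPM at 6W, and it fell 58.6-fold (log2 fold change -5.87 ± 0.21 SE, adjusted p = 8.32e-10). Aurkb, the kinase of the chromosomal passenger complex, fell from 47.2 to 1.18 CPM (log2 fold change -5.31 ± 0.18 SE, adjusted p = 8.09e-10), and Ccna2, cyclin A2, from 84.9 to 2.97 CPM (log2 fold change -4.83 ± 0.21 SE, adjusted p = 3.53e-09). In bulk samples such as these, fewer cells of a kind and less RNA per cell cannot be told apart.

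Genes of DNA replication followed the same direction with a smaller median. All 30 fell, with a median log2 fold change of -2.75 and a range from -6.15 to -0.54, and 29 did not overlap between the ages. Rrm2, a subunit of ribonucleotide reductase, was at 99.1, 103, 134 and 90.7 CPM at P1 and 8.81, 5.77, 9.07, 7.95 and 9.03 CPM at 6W and fell 13.2-fold (log2 fold change -3.72 ± 0.17 SE, adjusted p = 4.38e-09). Thymidine kinase Tk1 fell from 67.7 to 1.84 CPM (log2 fold change -5.19 ± 0.23 SE, adjusted p = 4.96e-09), and Gins2, a part of the replicative helicase, from 27.7 to 1.67 CPM (log2 fold change -4.05 ± 0.25 SE, adjusted p = 6.56e-08). Among 15 cyclins, kinases and inhibitors of G1 phase, 8 fell and 5 rose. Cyclin D1 (Ccnd1) fell from 239.8 to 64.2 CPM (log2 fold change -1.90 ± 0.19 SE, adjusted p = 2.96e-06), and its partner kinase Cdk4 from 425 to 151 CPM (log2 fold change -1.50 ± 0.11 SE, adjusted p = 2.64e-07). Those that rose were the inhibitors Cdkn1a, Cdkn1c and Cdkn2d and the pocket proteins Rb1 and Rbl2, which hold E2F factors in check. Cdkn1a, which encodes p21, was at 56.9, 87.97, 71.9 and 58.0 CPM at P1 and 1023, 922, 1279, 837 and 580.0 CPM at 6W. All 6W libraries were above all P1 libraries used, and the rise was 13.5-fold (log2 fold change 3.76 ± 0.23 SE, adjusted p = 5.15e-08). On CPM without TMM scaling, P1 library 1, left out here, held 275 CPM of Cdkn1a. The other P1 libraries held 61.5 to 96.9 CPM and those of 6W 533 to 1167 CPM. With P1 library 1 included the log2 fold change was 3.15.

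The promoters of these genes are shown because the members of each list moved together. RefSeq promoter windows on GRCm38.p6, from 250 bases before to 50 bases after the start of a gene, were found for 24 of the 30 G2 and mitosis genes and 24 of the 30 replication genes. On either strand, the letters TTTGAA of the cell cycle homology region (CHR) were found for 75.0% of the 24 mitotic genes. The share was 14.12% of the 10091 tested genes with a window and 17.9% of all 32851 windows. A gene was counted when any of its windows held a match, whereas the share of all windows counts each window, so the 2 shares are not of 1 unit. The CCAAT box (CCAAT) was found for 79.2% of the mitotic genes, against 42.8% of tested genes and 37.4% of all windows. An E2F site, spelled as TTTGGCGC, TTTCGCGC or TTTCCCGC, was found for 45.8% of the replication genes, against 4.09% of tested genes and 1.85% of all windows. Matches on opposite strands can overlap. A match is a description of letters and no measure of binding. Below are the 160 bases before the start of 3 mitotic and 3 replication genes, read in the direction of the gene, with CHR and CCAAT matches in capitals in the first 3 and E2F matches in the last 3. They were taken as the called members with the smallest p that had 1 window and a match before the start.

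Cdk1 (chr10:69352913-69353072, minus strand): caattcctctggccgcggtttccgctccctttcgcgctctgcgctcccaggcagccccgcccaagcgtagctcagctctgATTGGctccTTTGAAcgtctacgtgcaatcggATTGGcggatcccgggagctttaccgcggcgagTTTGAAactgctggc
Ube2c (chr2:164769769-164769928, plus strand): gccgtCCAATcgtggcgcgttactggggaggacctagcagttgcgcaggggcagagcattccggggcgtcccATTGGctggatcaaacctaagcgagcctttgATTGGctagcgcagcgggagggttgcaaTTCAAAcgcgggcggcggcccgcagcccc
Kif11 (chr19:37376222-37376381, plus strand): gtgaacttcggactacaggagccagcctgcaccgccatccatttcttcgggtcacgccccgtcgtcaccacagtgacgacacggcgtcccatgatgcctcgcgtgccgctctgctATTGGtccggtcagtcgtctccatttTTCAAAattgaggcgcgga
Cdc6 (chr11:98907991-98908150, plus strand): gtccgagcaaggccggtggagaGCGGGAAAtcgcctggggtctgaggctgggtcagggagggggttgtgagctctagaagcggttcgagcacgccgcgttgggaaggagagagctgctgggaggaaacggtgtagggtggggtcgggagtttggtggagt
Mcm5 (chr8:75109349-75109508, plus strand): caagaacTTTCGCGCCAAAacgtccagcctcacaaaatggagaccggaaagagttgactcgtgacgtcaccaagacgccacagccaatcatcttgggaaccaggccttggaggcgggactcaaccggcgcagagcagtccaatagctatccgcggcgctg
Mcm6 (chr1:128359706-128359865, minus strand): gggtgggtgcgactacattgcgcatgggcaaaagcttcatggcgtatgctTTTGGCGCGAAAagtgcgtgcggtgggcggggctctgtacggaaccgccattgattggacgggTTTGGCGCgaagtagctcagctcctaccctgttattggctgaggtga

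Cdk1 encodes the kinase that starts mitosis, Ube2c an enzyme that tags mitotic cyclins for destruction and Kif11 a motor of the spindle. Cdc6 loads the helicase onto replication origins, and Mcm5 and Mcm6 are subunits of that helicase. In the Cdk1 window the CHR matches began 71 and 15 bases before the start and the CCAAT matches 80 and 48 bases before it. Cdk1 fell from 81.5 to 3.34 CPM (log2 fold change -4.61 ± 0.22 SE, adjusted p = 6.09e-09), Ube2c from 31.5 to 1.83 CPM (log2 fold change -4.10 ± 0.23 SE, adjusted p = 2.31e-08) and Kif11 from 33.8 to 1.19 CPM (log2 fold change -4.84 ± 0.34 SE, adjusted p = 1.45e-07). Cdc6 fell from 32.5 to 3.56 CPM (log2 fold change -3.19 ± 0.26 SE, adjusted p = 5.2e-07), Mcm5 from 168 to 24.2 CPM (log2 fold change -2.80 ± 0.23 SE, adjusted p = 6.36e-07) and Mcm6 from 219 to 96.1 CPM (log2 fold change -1.19 ± 0.12 SE, adjusted p = 4.74e-06).

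Imprinted genes and fetal growth regulators also fell. Of 14 tested imprinted growth genes, which are read from 1 parental allele and mostly act on growth before and after birth, 13 fell (median -2.26), and Cdkn1c, a growth inhibitor, rose (0.92). H19, a noncoding RNA next to Igf2 (mm10 chr7:142575530-142578146, minus strand), was at 888, 1069.9, 1069 and 694 CPM at P1 and 2.76, 2.26, 3.39, 5.28 and 4.88 CPM at 6W. The ages stood far apart in every library, and H19 fell 254-fold (log2 fold change -7.99 ± 0.26 SE, adjusted p = 5.88e-10). Igf2, the fetal insulin-like growth factor (mm10 chr7:142650768-142661035, minus strand), was at 1461, 1687, 1522 and 1440.4 CPM at P1 and 61.3, 43.6, 51.3, 56.2 and 33.2 CPM at 6W, and it fell 31.1-fold (log2 fold change -4.96 ± 0.17 SE, adjusted p = 8.09e-10). Mest fell from 2669 to 111 CPM (log2 fold change -4.59 ± 0.15 SE, adjusted p = 5.88e-10). Dlk1 had 2 counts over the 5 libraries of 6W and 414 over the 4 of P1, a ratio of 195 (95% Poisson interval 54.0 to 1612) by counting error alone, and both counts at 6W came from library 4.

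Of 11 fetal growth regulators, 8 fell and 1 rose (median -3.51). The messenger RNA binding proteins Igf2bp2 and Igf2bp3, fetal regulators of Igf2 and other transcripts, fell from 37.5 to 3.30 CPM (log2 fold change -3.51 ± 0.26 SE, adjusted p = 2.27e-07) and from 31.7 to 1.54 CPM (log2 fold change -4.35 ± 0.19 SE, adjusted p = 4.38e-09). Igf2bp1 had 1 count over all 6W libraries and 1024 over P1, a ratio of 966 (95% Poisson interval 173 to 38143). The insulin receptor Insr was the member that rose (1.01).

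The 12 largest falls and the 12 largest rises were taken among called, non-overlapping genes with a mean of at least 10 CPM in the higher age. Besides H19 and Igf2bp1, the falls were Col26a1, Tro, Tnni1, Fbn2, Mcm10, Add2, Capn6, Mdk, Neil3 and Arxes1. Col26a1, a collagen gene, and Tro (trophinin) had no count in any 6W library, so they were at least 406-fold and 393-fold lower, taking 3 counts over the group as the floor. Fbn2, a fibrillin of developing microfibrils, had 2 counts at 6W, a ratio of 484 (95% Poisson interval 134 to 3999), and the replication factor Mcm10 had 3, a ratio of 399 (95% Poisson interval 137 to 1936). Capn6, a calpain family member, was at 32.8, 68.6, 57.2 and 32.5 CPM at P1 and 0.0468, 0, 0.287, 0.890 and 0 CPM at 6W. It fell 204-fold (log2 fold change -7.68 ± 0.61 SE, adjusted p = 4.62e-07), and its log2 fold change was -9.15 without 6W library 5, which held the highest adult value. Mdk, the growth factor midkine, fell from 74.8 to 0.598 CPM (log2 fold change -6.97 ± 0.30 SE, adjusted p = 2.79e-09). Neil3, a DNA glycosylase, fell from 24.5 to 0.253 CPM (log2 fold change -6.59 ± 0.54 SE, adjusted p = 5.62e-07), or -7.50 without 6W library 5. Add2, a cytoskeletal adducin, fell from 43.9 to 0.145 CPM (log2 fold change -8.24 ± 0.53 SE, adjusted p = 8.08e-08), or -10.43 without 6W library 4. Arxes1 is uncertain, since it has the near-identical copy Arxes2.

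The rises were led by genes that were close to silent at P1. Xdh, xanthine dehydrogenase, which makes uric acid from purines (mm10 chr17:73883895-73950196, minus strand), was at 2.35, 2.42, 6.14 and 3.61 CPM at P1 and 1432, 1418, 1221, 1784 and 2004 CPM at 6W. All P1 libraries were low and all 6W libraries high, and Xdh rose 436-fold (log2 fold change 8.77 ± 0.33 SE, adjusted p = 1.25e-09). Fmo2, a flavin monooxygenase of drug metabolism (mm10 chr1:162875047-162898712, minus strand), was at 0.596, 0.844, 1.37 and 0.863 CPM at P1 and 293, 236, 348, 316 and 299 CPM at 6W and rose 326-fold (log2 fold change 8.35 ± 0.22 SE, adjusted p = 1.53e-10). Thrsp, a regulator of lipid synthesis in other tissues, was at 2.82, 1.96, 2.12 and 2.04 CPM at P1 and 280.0, 243, 316, 232 and 221 CPM at 6W and rose 115-fold (log2 fold change 6.85 ± 0.18 SE, adjusted p = 1.53e-10). In each of these 3 genes the lowest adult library was far above the highest newborn one. Cyp1a1, the cytochrome P450 induced through the aryl hydrocarbon receptor, rose from 0.228 to 59.9 CPM (log2 fold change 8.04 ± 0.71 SE, adjusted p = 1.21e-06). Gda, guanine deaminase, which feeds the purine pathway above Xdh, rose from 0.207 to 28.4 CPM (log2 fold change 7.04 ± 0.37 SE, adjusted p = 1.71e-08). Pbld1 and the glutamate transporter Slc1a1 each had 2 counts over all P1 libraries, with 6W over P1 ratios of 1883 (95% Poisson interval 521 to 15546) and 981 (95% Poisson interval 272 to 8099). The others were the small leucine-rich proteoglycan Nepn (0.775 to 68.5 CPM), Aim1 (0.666 to 53.9 CPM), the glutathione transferase Gstt1 (0.584 to 39.3 CPM), the lubricin gene Prg4 (0.529 to 33.6 CPM) and Slc10a6 (1.65 to 105 CPM), a transporter of sulfated steroids.

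**Figure D1:**
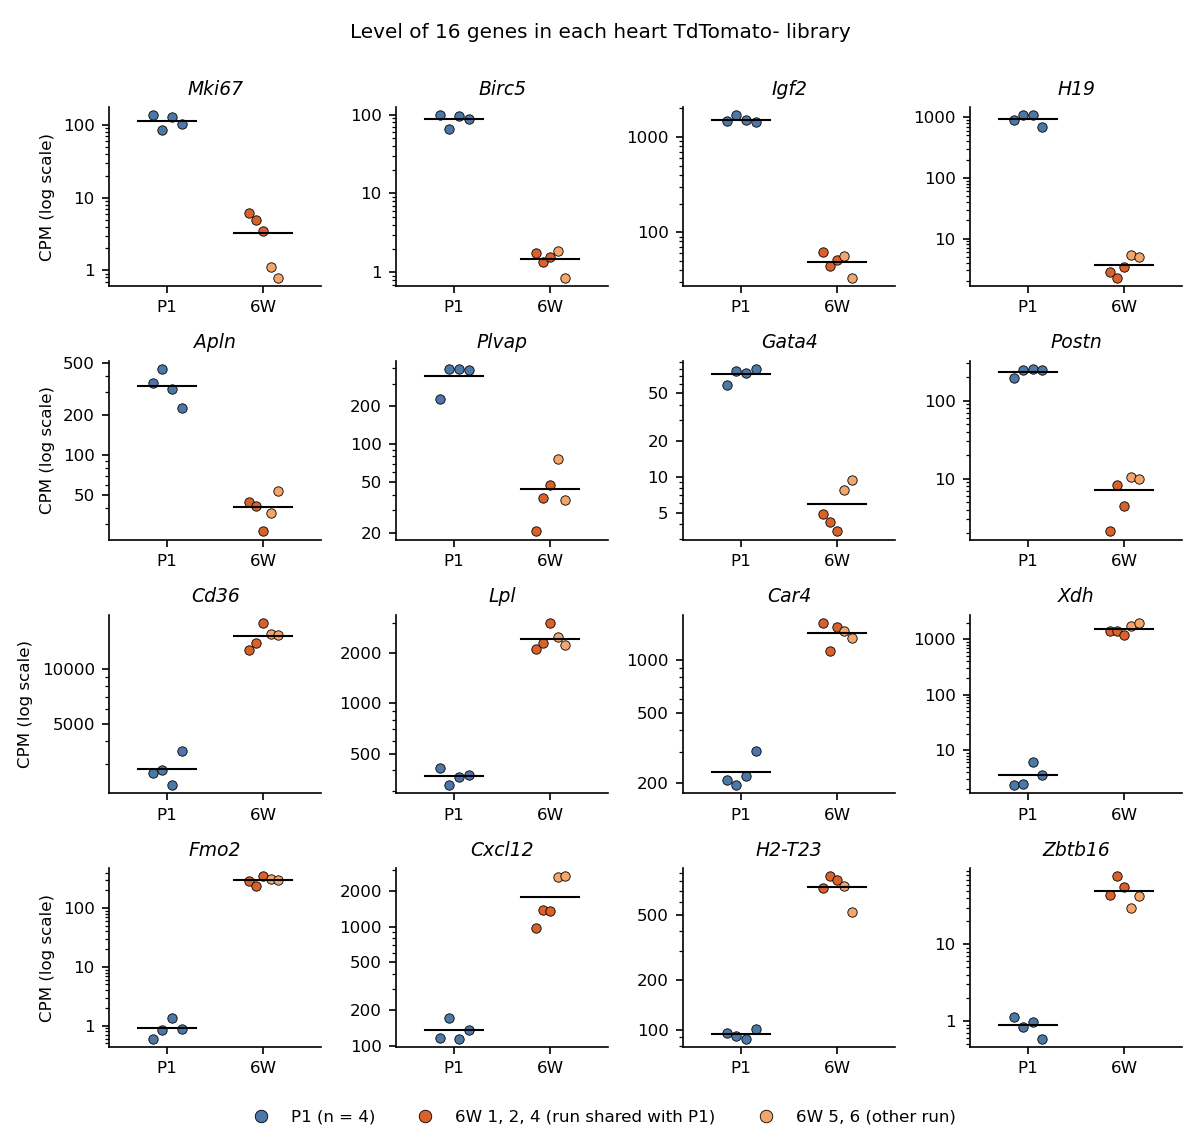
Level of 16 genes (CPM, log axis) in each of the 9 heart TdTomato- libraries by age, with a line at the group mean. Blue points are P1, dark orange points the 6W libraries in the run shared with P1 and light orange points those of the other run. The ages do not overlap for any of the 16 genes, and Mki67, Gata4 and Cxcl12 also differ between the runs at 6W.

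Genes of the vessel types moved in different directions. Of 12 endocardial markers, 11 fell and none rose (median -3.42), and their summed level was 642 to 1073 CPM at P1 and 187 to 331 CPM at 6W. Gata4, a cardiac transcription factor, was at 58.4, 77.0, 73.9 and 79.3 CPM at P1 and 4.92, 4.15, 3.50, 7.71 and 9.39 CPM at 6W. Every adult library lay below every newborn one, and Gata4 fell 12.2-fold (log2 fold change -3.61 ± 0.26 SE, adjusted p = 1.86e-07). Npr3, the natriuretic peptide clearance receptor of endocardium, was at 65.8, 103, 139 and 101 CPM at P1 and 7.92, 9.23, 12.5, 14.9 and 13.8 CPM at 6W and fell 8.80-fold (log2 fold change -3.14 ± 0.23 SE, adjusted p = 2.29e-07). Tmem108 fell from 122 to 4.52 CPM (log2 fold change -4.77 ± 0.44 SE, adjusted p = 1.54e-06). Several of these genes are also expressed in mesenchymal cells of the heart, whose fibroblast markers fell as well (given below). The part of such cells in the endocardial result was not tested.

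Arterial genes rose. Of 22 tested, 17 rose and 4 fell (median 1.02), the 4 being Gja4, Hey2, Bmx and Eln, the elastin gene; with RNA integrity as a covariate 1 fell. Cxcl12, the chemokine of arterial endothelium, was at 116, 171, 115 and 136 CPM at P1 and 965, 1377, 1353, 2582 and 2631 CPM at 6W. All 6W libraries were above P1, those of the other run highest, and the rise was 13.2-fold (log2 fold change 3.73 ± 0.31 SE, adjusted p = 6.28e-07). Sema3g rose from 14.5 to 163 CPM (log2 fold change 3.49 ± 0.26 SE, adjusted p = 2.25e-07). Of 15 Notch pathway genes, 11 rose and 2, Notch2 and Hey2, fell (median 0.91). The ligand Dll4 rose from 181 to 447 CPM (log2 fold change 1.30 ± 0.10 SE, adjusted p = 4.35e-07), the ligand Jag2 from 179 to 419 CPM (log2 fold change 1.22 ± 0.10 SE, adjusted p = 4.52e-07) and the target Hey1 from 57.6 to 184 CPM (log2 fold change 1.68 ± 0.11 SE, adjusted p = 8.29e-08). Notch3, a pericyte receptor that is also on that marker list, was among the 11.

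Venous genes were divided, with 5 higher and 6 lower of 16, and a median of -0.08 that turned positive in some alternatives. Nr2f2, the factor COUP-TFII that sets venous fate, fell from 53.4 to 18.7 CPM (log2 fold change -1.51 ± 0.15 SE, adjusted p = 2.55e-06). Cpe, carboxypeptidase E, fell from 589.9 to 91.8 CPM (log2 fold change -2.69 ± 0.21 SE, adjusted p = 4.52e-07), and the leukocyte adhesion receptor Sele (E-selectin) from 23.8 to 1.01 CPM (log2 fold change -4.54 ± 0.42 SE, adjusted p = 1.86e-06). The 5 that rose were Ephb4, Lrg1, Vcam1, Ptgs1 and Tmem252. Plvap, which forms the diaphragms of fenestrated and venous endothelium, was at 227, 391, 389.7 and 382 CPM at P1 and 20.5, 37.4, 48.0, 77.1 and 36.5 CPM at 6W. Even the lowest newborn library, 2, was above the highest adult one, and Plvap fell 7.93-fold (log2 fold change -2.99 ± 0.30 SE, adjusted p = 4.11e-06). Of 11 lymphatic markers, 5 fell and 1, Flt4, rose (median -1.18). Those that fell were Cldn11, Foxc2, Itga9, Pard6g and the master regulator Prox1 (-2.63), and the summed level overlapped between the ages (383 to 516 CPM at P1 and 206 to 501 CPM at 6W). No lymphatic marker rose within the shared run, under total-count scaling or with RNA integrity as a covariate (median -0.56 in the last). In the libraries without Ddx3y RNA 4 rose and 5 fell (median -0.35).

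The capillary genes of fatty acid uptake rose. Of 19 tested, 12 rose and 3 fell (median 0.99), and their summed level was 11162 to 12374 CPM at P1 and 32953 to 37972 CPM at 6W. Cd36, the fatty acid translocase (mm10 chr5:17781690-17888959, minus strand), was at 2698, 2785, 2307 and 3536 CPM at P1 and 12679, 13874, 17825, 15507 and 15365 CPM at 6W. The 6W libraries were all above P1, and Cd36 rose 5.32-fold (log2 fold change 2.41 ± 0.15 SE, adjusted p = 4.95e-08). Lpl, lipoprotein lipase, which frees fatty acids from lipoproteins, was at 414, 326, 363 and 374 CPM at P1 and 2100.4, 2281, 3009, 2469.6 and 2227 CPM at 6W and rose 6.55-fold (log2 fold change 2.71 ± 0.13 SE, adjusted p = 7.03e-09). Car4, a carbonic anhydrase of capillary surfaces, was at 209.8, 195, 221 and 306 CPM at P1 and 1632, 1126, 1538, 1464 and 1333 CPM at 6W and rose 6.09-fold (log2 fold change 2.61 ± 0.16 SE, adjusted p = 5.02e-08). The lipid binding protein Fabp4 rose from 4310.4 to 8575 CPM (log2 fold change 0.99 ± 0.15 SE, adjusted p = 0.000114). The nuclear receptor Pparg rose from 76.8 to 281 CPM (log2 fold change 1.87 ± 0.10 SE, adjusted p = 1.62e-08), and Rgcc from 252 to 1371 CPM (log2 fold change 2.44 ± 0.10 SE, adjusted p = 2.79e-09). Of the transcription factors Tcf15 and Meox2, whose dimer drives heart endothelial fatty acid uptake in mice, Tcf15 rose from 233 to 559 CPM (log2 fold change 1.26 ± 0.18 SE, adjusted p = 6.87e-05). Meox2 overlapped between the ages (135 to 175 CPM at P1 and 171 to 271 CPM at 6W), and its call (log2 fold change 0.41 ± 0.15 SE, adjusted p = 0.0342) was lost within the shared run, at 0.20. The 3 that fell were Fabp5, Slc27a1 and Angptl4, an inhibitor of Lpl (-1.02). Angptl4 was also called lower in the 6W libraries of the other run than in those of the shared run. Within the shared run 2 of the list fell, and with RNA integrity as a covariate 1. On CPM without TMM scaling, P1 library 1, left out here, held 1546 CPM of Lpl. The other P1 libraries held 359 to 447 CPM and those of 6W 1950 to 2745 CPM. In P1 library 1 Fabp4 (7675 CPM) lay within the 6048 to 10045 CPM of 6W. Cd36 (3379 CPM) lay within the 2584 to 3933 CPM of the other P1 libraries. With P1 library 1 included 13 rose and 3 fell (median 0.79), and the log2 fold change of Lpl was 2.07.

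Other metabolic lists held genes of both directions. Of 22 genes of glycolysis and hypoxia, 11 fell and 5 rose (median -0.36). The glycolytic enzyme Tpi1 fell from 282 to 135 CPM (log2 fold change -1.06 ± 0.09 SE, adjusted p = 1.07e-06), while the hypoxia targets Bnip3 and Ndrg1 rose from 42.7 to 186 CPM (log2 fold change 2.12 ± 0.18 SE, adjusted p = 9.89e-07) and from 209.5 to 668 CPM (log2 fold change 1.67 ± 0.12 SE, adjusted p = 1.99e-07). Hk1, Pfkp and Aldoa were the other 3 that rose. Of 30 nuclear genes of oxidative phosphorylation, 9 fell and 2, Ndufa6 and Ndufv1, rose (median -0.23). That count depended on the processing, with 25 lower under total-count scaling and 5 within the shared run. Cox7b, a subunit of cytochrome oxidase, fell from 119.5 to 64.8 CPM (log2 fold change -0.88 ± 0.15 SE, adjusted p = 0.000368). Of 18 genes of cholesterol synthesis and uptake, 9 fell, or 5 with P1 library 1 included, and 1 rose (median -0.58). Squalene epoxidase, Sqle, fell from 47.3 to 6.27 CPM (log2 fold change -2.91 ± 0.20 SE, adjusted p = 1.13e-07), and Insig1, which holds back synthesis, rose from 23.9 to 51.0 CPM (log2 fold change 1.09 ± 0.19 SE, adjusted p = 0.000326).

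Angiogenic genes did not move as 1 group. Of 20 tip cell genes, 9 rose and 6 fell, and the median log2 fold change of 0.19 became -0.07 under total-count scaling. Apln, apelin, a peptide of sprouting endothelium, was at 350.2, 448, 317 and 229 CPM at P1 and 44.3, 41.5, 26.6, 36.7 and 53.3 CPM at 6W. The ages did not overlap, and Apln fell 8.30-fold (log2 fold change -3.05 ± 0.21 SE, adjusted p = 1.44e-07). Its receptor Aplnr overlapped between the ages (1208 to 1777 CPM at P1 and 640.4 to 1328 CPM at 6W) and fell (log2 fold change -0.78 ± 0.20 SE, adjusted p = 0.00524). Igfbp3 rose from 159 to 738 CPM (log2 fold change 2.22 ± 0.15 SE, adjusted p = 1.04e-07) and the lymphangiogenic ligand Vegfc from 50.6 to 186 CPM (log2 fold change 1.88 ± 0.14 SE, adjusted p = 2.83e-07). Of 14 VEGF and angiopoietin ligands and receptors, 9 rose and the ligands Vegfa and Vegfb fell (median 0.89). Flt1, a decoy receptor for VEGF-A, rose from 352 to 986 CPM (log2 fold change 1.49 ± 0.09 SE, adjusted p = 5.55e-08).

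Among 20 BMP and TGF-beta pathway genes, 11 rose and 3 fell (median 0.72), the 3 being Bmp2, Tgfb1 and Tgfb2. Only 1 fell within the shared run, with the run as a covariate and with a replicate block. With RNA integrity as a covariate 8 rose and 1 fell. The ligand Bmp6 rose from 86.5 to 450.1 CPM (log2 fold change 2.38 ± 0.20 SE, adjusted p = 6.87e-07), its endothelial receptor Acvrl1 from 114 to 635 CPM (log2 fold change 2.47 ± 0.15 SE, adjusted p = 4.21e-08) and the target Id1 from 241 to 1041 CPM (log2 fold change 2.11 ± 0.18 SE, adjusted p = 7.65e-07). Of 14 Wnt pathway genes, 5 rose, or 3 under total-count scaling, and Nkd1 and Apcdd1, feedback inhibitors, fell (median -0.19). The receptor Fzd4 rose from 113 to 242 CPM (log2 fold change 1.10 ± 0.17 SE, adjusted p = 0.000124), and Sox17 from 232 to 447 CPM (log2 fold change 0.95 ± 0.13 SE, adjusted p = 4.16e-05). Nkd1 fell from 20.9 to 6.22 CPM (log2 fold change -1.75 ± 0.27 SE, adjusted p = 0.000152). Of 15 genes of shear stress and nitric oxide, 7 rose and 3, Ednrb, Ddah1 and Ddah2, fell, and the median of 0.25 was -0.01 under total-count scaling. Thrombomodulin, Thbd, rose from 273 to 1109 CPM (log2 fold change 2.02 ± 0.17 SE, adjusted p = 7.07e-07), and the caveolar gene Cav2 from 559 to 1464 CPM (log2 fold change 1.39 ± 0.12 SE, adjusted p = 7.58e-07).

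Basement membrane genes mostly fell, with 12 lower and 5 higher of 19 (median -0.55). Col18a1, the source of endostatin, was at 1675, 1592, 1402 and 1704 CPM at P1 and 86.6, 104, 173, 132 and 168 CPM at 6W and fell 12.0-fold (log2 fold change -3.59 ± 0.19 SE, adjusted p = 1.95e-08). Nid2, nidogen 2, fell from 737 to 158 CPM (log2 fold change -2.22 ± 0.15 SE, adjusted p = 1.01e-07), and Sparc, a matrix protein of growing tissue, from 6916 to 4089 CPM (log2 fold change -0.76 ± 0.11 SE, adjusted p = 8.72e-05). Col4a1, a chain of type IV collagen, overlapped between the ages (3987 to 4815 CPM at P1 and 2799.7 to 4549 CPM at 6W), and its call (log2 fold change -0.36 ± 0.13 SE, adjusted p = 0.0416) was lost without any 1 of several libraries. Lama5, the laminin chain of mature vessels, was at 21.9, 22.1, 25.07 and 27.3 CPM at P1 and 149, 131, 137, 118 and 138 CPM at 6W. It was higher in every adult library and rose 5.58-fold (log2 fold change 2.48 ± 0.12 SE, adjusted p = 6.09e-09). The other 4 that rose were Lamb2, P4ha1, P4ha2 and Plod1. Of 14 junction genes, 10 rose and 3, Ocln, Cgnl1 and Gja4, fell (median 0.79). Jam2 rose from 300.1 to 1645 CPM (log2 fold change 2.45 ± 0.17 SE, adjusted p = 1.22e-07) and Esam from 1356 to 2914 CPM (log2 fold change 1.10 ± 0.10 SE, adjusted p = 1.38e-06).

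**Figure D2:**
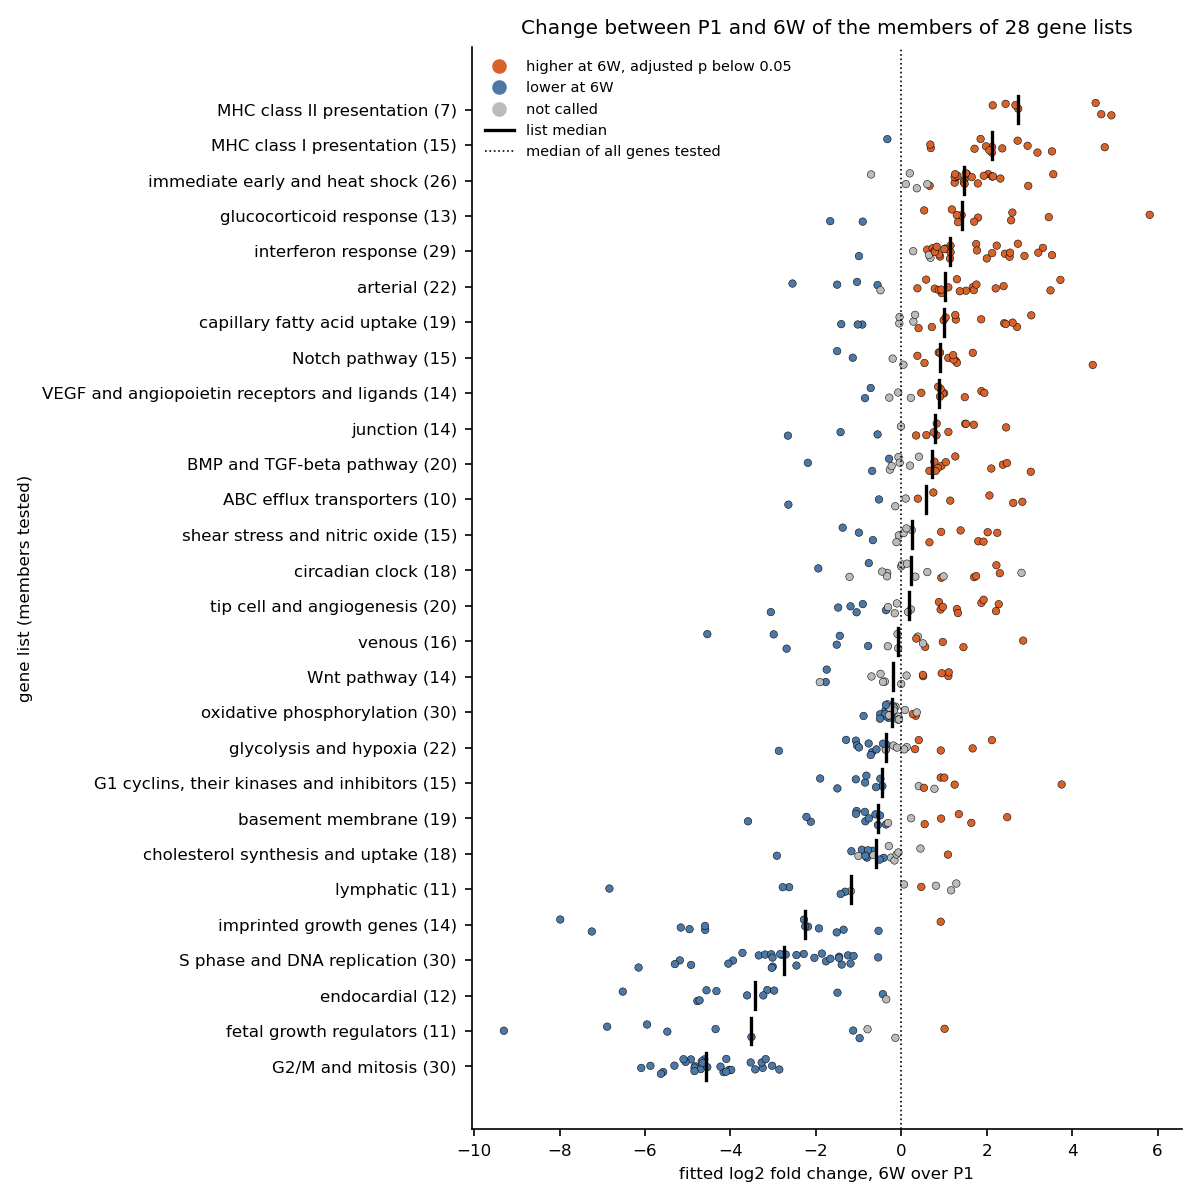
Log2 fold change, 6W over P1, of the tested members of 28 gene lists, each point a gene, with the median of each list marked and a dotted line at the median of all genes tested. Lists of mitosis, DNA replication, endocardial and fetal growth genes lie to the negative side, with medians of -4.58, -2.75, -3.42 and -3.51, and those of MHC class I and class II to the positive side, with medians of 2.12 and 2.74.

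Antigen presentation and interferon response genes rose. Of 15 genes of MHC class I presentation, which shows peptides of the cell's own proteins to T cells, 14 rose and 1, the chaperone Calr, fell (median 2.12). H2-T23 was at 96.3, 92.4, 88.4 and 101 CPM at P1 and 731, 856, 819, 745 and 518 CPM at 6W. The ages did not overlap, and H2-T23 rose 7.77-fold (log2 fold change 2.96 ± 0.15 SE, adjusted p = 9.16e-09). The classical gene H2-D1 rose from 499 to 2179 CPM (log2 fold change 2.13 ± 0.12 SE, adjusted p = 2.86e-08), the light chain B2m from 589.7 to 2332 CPM (log2 fold change 1.98 ± 0.19 SE, adjusted p = 2.66e-06) and Tapbp, which loads peptides, from 189 to 974.6 CPM (log2 fold change 2.36 ± 0.15 SE, adjusted p = 6.05e-08). Class I genes are close relatives, so their counts may be shared among copies. All 7 MHC class II presentation genes rose (median 2.74), or 4 with RNA integrity as a covariate, from low levels. H2-Ab1 was at 1.35, 2.42, 1.06 and 1.10 CPM at P1 and 5.67, 12.3, 11.7, 9.85 and 10.2 CPM at 6W and Cd74, the invariant chain, at 0.119, 0.0768, 0.0883 and 1.33 CPM at P1 and 6.79, 7.80, 9.07, 6.17 and 18.7 CPM at 6W. Cd74 rose by 4.55 ± 0.76 SE (adjusted p = 0.000284), or 6.59 without P1 library 5. Class II genes are also made by leukocytes, whose 20 markers summed to 14.6 to 21.7 CPM at P1 and 9.88 to 61.8 CPM at 6W, and Ptprc, the CD45 gene, held 1 count over all P1 libraries and 9 over all 6W libraries. The part of such cells was not tested.

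Of 29 interferon response genes, 25 rose and 1, the chemokine Cxcl10, fell (median 1.15). With RNA integrity as a covariate 16 rose, and in the libraries without Ddx3y RNA 18 rose. Irf1, a factor of the interferon response, was at 109, 99.5, 76.0 and 120.5 CPM at P1 and 555, 545, 457, 527 and 639.9 CPM at 6W and rose 5.38-fold (log2 fold change 2.43 ± 0.15 SE, adjusted p = 4.66e-08). Rsad2, the antiviral viperin, was at 66.7, 27.7, 37.7 and 78.4 CPM at P1 and 508, 475, 571, 448 and 430.1 CPM at 6W and rose 9.24-fold (log2 fold change 3.21 ± 0.27 SE, adjusted p = 7.69e-07). Gbp2, an interferon-induced GTPase, rose from 40.7 to 236 CPM (log2 fold change 2.54 ± 0.19 SE, adjusted p = 2.75e-07). The interferon-stimulated response element (ISRE) was searched on both strands as GAAA, any 2 bases and GAAA again. It was found for 65.0% of the 20 interferon genes with a window and 23.08% of the 13 MHC class I genes with a window. The share was 3.66% of tested genes and 3.44% of all windows. Below are the 160 bases before the start of 3 interferon genes, chosen by the same rule, with the ISRE in capitals.

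Gbp2 (chr3:142620503-142620662, plus strand): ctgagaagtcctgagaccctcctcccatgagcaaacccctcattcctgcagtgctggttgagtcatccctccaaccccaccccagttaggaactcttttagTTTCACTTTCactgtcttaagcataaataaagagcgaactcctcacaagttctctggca
Rsad2 (chr12:26456453-26456612, minus strand): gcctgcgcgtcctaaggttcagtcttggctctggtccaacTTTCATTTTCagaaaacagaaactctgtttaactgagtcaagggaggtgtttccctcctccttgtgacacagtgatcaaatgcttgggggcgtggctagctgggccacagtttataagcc
Ifit3 (chr19:34583369-34583528, plus strand): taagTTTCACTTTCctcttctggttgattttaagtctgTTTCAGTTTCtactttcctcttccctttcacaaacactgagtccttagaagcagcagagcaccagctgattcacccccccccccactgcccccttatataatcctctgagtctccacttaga

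The match began 59 bases before the start in Gbp2 and 120 bases before it in Rsad2, and Ifit3 held 2 matches, 156 and 122 bases before its start. Ifit3, an antiviral protein that binds foreign RNA with its relatives, rose from 9.17 to 91.5 CPM (log2 fold change 3.32 ± 0.35 SE, adjusted p = 6.22e-06).

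Immediate early and heat shock genes, which cells switch on within minutes of stress or stimulation, rose at 6W. Of 26 tested, 20 rose and none fell (median 1.47). Within the shared run 20 rose and 1 fell. With RNA integrity as a covariate 16 rose, and in the libraries without Ddx3y RNA 18 rose and 1 fell (median 0.89). Dusp1, a phosphatase that ends MAP kinase signals, was at 746, 984, 875 and 866 CPM at P1 and 2989, 2832, 1889, 1761 and 2898 CPM at 6W and rose 2.85-fold (log2 fold change 1.51 ± 0.17 SE, adjusted p = 1.14e-05). Ier5 rose from 76.7 to 212 CPM (log2 fold change 1.46 ± 0.14 SE, adjusted p = 1.66e-06). The small heat shock protein Hspb1 was at 96.0, 133, 166 and 60.03 CPM at P1 and 2187, 1865, 869, 791 and 985 CPM at 6W and rose 11.8-fold (log2 fold change 3.56 ± 0.38 SE, adjusted p = 6.61e-06). These genes are also known to respond to tissue digestion and sorting, whose part in the result was not tested.

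Glucocorticoid response genes rose, 11 of 13, with 2, Fkbp5 and Hsd11b1, lower (median 1.41). Zbtb16, a transcription factor induced by glucocorticoids, was at 1.11, 0.844, 0.971 and 0.589 CPM at P1 and 44.1, 76.9, 55.5, 29.6 and 42.7 CPM at 6W. It rose 56.4-fold (log2 fold change 5.82 ± 0.32 SE, adjusted p = 2.31e-08) over the 4 P1 libraries used. Klf9 was at 27.7, 35.7, 31.2 and 34.3 CPM at P1 and 306, 338, 346, 438 and 337 CPM at 6W and rose 10.96-fold (log2 fold change 3.45 ± 0.13 SE, adjusted p = 1.57e-09). The kinase Sgk1 rose from 662 to 1763 CPM (log2 fold change 1.41 ± 0.12 SE, adjusted p = 6.23e-07). P1 library 1, left out here, stood apart for these genes and for some of other lists, such as Abcg2, Cdkn1a and Lpl (given above). On CPM without TMM scaling it held 125 CPM of Zbtb16, against 0.655 to 1.20 CPM in the other P1 libraries and 27.6 to 71.3 CPM at 6W. Its Klf9 was at 217 CPM, against 29.9 to 39.3 CPM in the other P1 libraries. With P1 library 1 included, the log2 fold change was 1.09 for Zbtb16 and 0.73 for Per1, both no longer called, and 2.44 for Klf9, 3.29 for Slc10a6 and 4.84 for Thrsp, which stayed called.

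Of 18 circadian clock genes, 5 rose and 2, Per3 and Ciart, fell. The split depended on the libraries and the model, with 5 higher and 7 lower within the shared run and also in the libraries without Ddx3y RNA, 3 and 5 with the run as a covariate, and 4 and 5 under total-count scaling. The median of 0.23 became -0.14 within the shared run and -0.03 under total-count scaling. Arntl, the clock activator Bmal1, rose from 18.13 to 89.8 CPM (log2 fold change 2.31 ± 0.22 SE, adjusted p = 1.87e-06), and Per1 from 21.97 to 71.7 CPM (log2 fold change 1.71 ± 0.22 SE, adjusted p = 2.7e-05). The other 3 that rose were Clock, Npas2 and Nr1d1. Dbp, a clock output gene, was at 11.6, 13.3, 12.2 and 8.99 CPM at P1 and 4.96, 5.49, 3.21, 2.02 and 42.9 CPM at 6W and did not pass the test (adjusted p = 0.983). Its adult values spread widely between libraries, and the hour of collection is not given in the labels.

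Markers of other cell types were low beside the endothelial sum and differed between the ages. The 16 fibroblast markers summed to 805 to 1196 CPM at P1 and 214 to 372 CPM at 6W, and 11 fell and none rose (median -1.11), or 6 fell with RNA integrity as a covariate and 6 in the libraries without Ddx3y RNA. Postn, periostin, was at 192, 248, 254 and 246 CPM at P1 and 2.11, 8.17, 4.48, 10.6 and 10.0 CPM at 6W and fell 33.4-fold (log2 fold change -5.06 ± 0.36 SE, adjusted p = 1.6e-07). Col1a2 fell from 103 to 14.4 CPM (log2 fold change -2.84 ± 0.21 SE, adjusted p = 2.31e-07), while Col1a1 overlapped (2.65 to 34.4 CPM at P1 and 3.96 to 13.4 CPM at 6W) and did not pass the test (adjusted p = 0.0999). The 14 pericyte and smooth muscle markers summed to 51.9 to 83.8 CPM at P1 and 87.05 to 409.8 CPM at 6W, with 9 higher and 1, Abcc9, lower (median 3.21). Rgs5, a pericyte marker, rose from 1.71 to 43.4 CPM (log2 fold change 4.65 ± 0.39 SE, adjusted p = 7.69e-07). Vtn had 2 counts over the P1 libraries, a 6W over P1 ratio of 267 (95% Poisson interval 74.0 to 2206). The pericyte receptor Pdgfrb was at 6.93 to 13.7 CPM at P1 and 7.06 to 42.4 CPM at 6W (log2 fold change 1.42 ± 0.43 SE, adjusted p = 0.0142), and within the shared run its log2 fold change was 0.77 and not called.

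The 23 cardiomyocyte markers summed to 456 to 649 CPM at P1, 494 to 522 CPM in the 6W libraries of the shared run and 1025 to 1052 CPM in those of the other run. On the common scaling with muscle, the sum was 441 to 643 CPM in P1 heart and 481 to 1017 CPM in 6W heart. In the TdTomato- muscle libraries it was 630 to 778 CPM at postnatal day 6 and 379 to 452 CPM at 6W, so its level is not particular to heart. Of 21 tested, 8 rose and 1, Tnni1, fell (median 1.25), while within the shared run 3 rose and 1 fell (median -0.02), and with RNA integrity as a covariate 1 rose. Tnni1, the fetal troponin I, had 3 counts over the 6W libraries, a P1 over 6W ratio of 458 (95% Poisson interval 157 to 2219). The adult troponin I gene Tnni3 was at 2.46, 3.76, 3.66 and 14.2 CPM at P1 and 10.0, 7.29, 7.35, 41.3 and 41.2 CPM at 6W. The ages overlap, and its log2 fold change of 1.83 ± 0.66 SE (adjusted p = 0.0356) was 0.47 and not called within the shared run. Nppa rose from 1.83 to 8.86 CPM (log2 fold change 2.27 ± 0.48 SE, adjusted p = 0.00145), but its log2 fold change was 0.14 with P1 library 1 included. Myh6, Myl4 and Myl7 did not pass the test, with adjusted p of 0.171, 0.77 and 0.915, and Myh7 lay below the count filter.

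Leukocyte markers were near 0, with 2 higher (Cd14, Lyz2) and 2 lower (Laptm5, Mrc1) of 7 tested. Of 7 erythroid and platelet markers, 2 were higher (Alas2, Ppbp) and 2 lower, the embryonic globin Hbb-y and Gp1ba. Hbb-y had no count at 6W and was at least 59.4-fold lower, or at least 36.6-fold without P1 library 4, which held 4.37 CPM against 0.596 to 2.00 CPM in the other P1 libraries. Of 5 markers of epicardium, Krt18, Krt19 and Wt1 fell, and of 4 of nerve, Ncam1 fell. With RNA integrity as a covariate 1 epicardial marker was still lower, and the log2 fold change of Wt1 went from -0.54 to -0.27 and was not called. Of 12 limb position genes Hoxa5 and Hoxb5 were called higher, and of 3 skeletal fibre genes Acta1 and Mylpf, Mylpf from 3.01 to 13.0 CPM (log2 fold change 2.11 ± 0.25 SE, adjusted p = 1.76e-05). The call of Hoxa5 (log2 fold change 0.83) was lost in 11 of 22 alternatives, at 0.51 in the libraries without Ddx3y RNA. That of Acta1 (2.12) was lost in 10, at 1.79 within the shared run, 1.18 with RNA integrity as a covariate and 0.84 in the libraries without Ddx3y RNA. None of the 5 sex-linked genes was called. How far RNA of these cells enters the endothelial values was not tested.

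**Figure D3:**
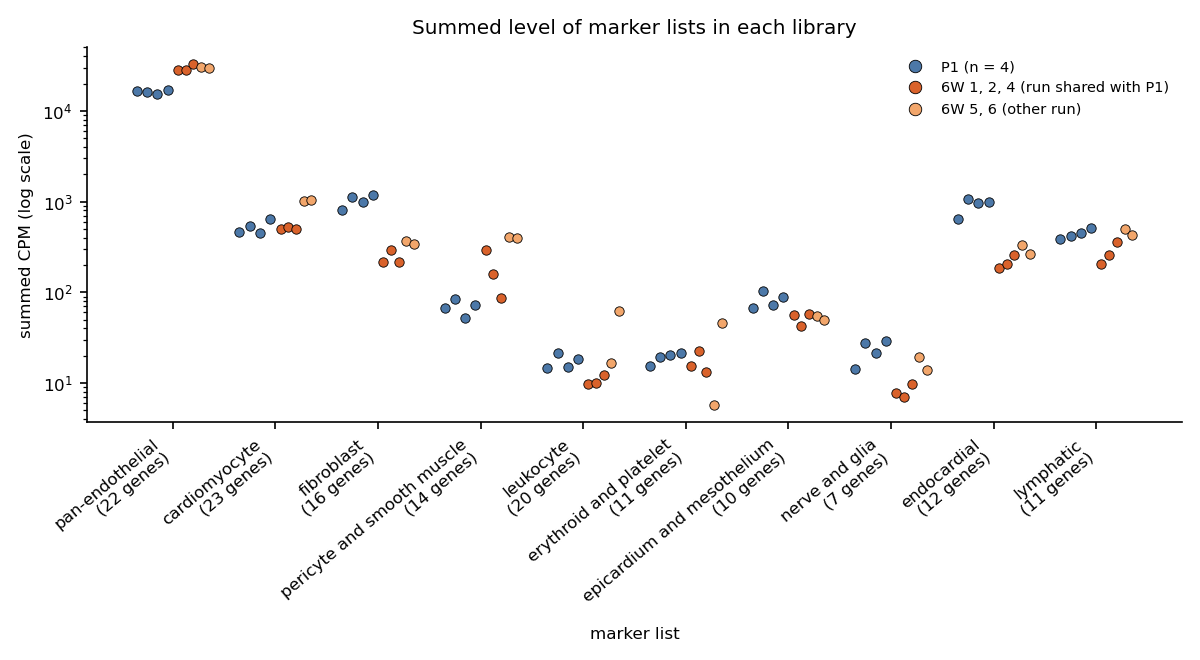
Summed level (CPM, log axis) of 10 marker lists in each of the 9 libraries, by age and run. The pan-endothelial sum is 15335 to 17176 CPM at P1 and 28289.8 to 32785 CPM at 6W, the fibroblast and endocardial sums are lower at 6W, and the cardiomyocyte sum is raised in the 2 adult libraries of the other run.

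The sequencing run separated the adult libraries further. In a fit of the same 9 libraries, 209 of 14129 genes (1.48%) differed between 6W libraries 5 and 6 and 6W libraries 1, 2 and 4, 131 of them higher and 78 lower in the other run. The count depended on single libraries: it was 12, 31 and 388 without 6W library 1, 2 or 4. Without 6W library 5 or 6 it was 91 or 3, where the other run is 1 library that is assumed to vary like the other groups. DESeq2 called 816. Of the named genes, Mki67 (4.87 against 0.960 CPM, shared against other run), Cxcl12 (1232 against 2606 CPM), Gata4 (4.19 against 8.55 CPM), Tmem108 (2.38 against 7.72 CPM) and Per1 (86.6 against 49.2 CPM) were called. Within the shared run alone, 6567 genes differed with age, and 5917 of the 6788 were called again. All 5 of those named genes kept their direction with age there. Run, RNA input and the replicates of 6W cannot be told apart.

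Muscle gave a second comparison of ages, with 4 libraries of 6W and 5 of postnatal day 6 (P6) Muscle EC TdTomato-, sorted from the same mouse strain after the same tamoxifen dose. There the age and the run cannot be told apart, since all P6 libraries were in 1 run and all 6W ones in the other, and P6 is not P1. Where the run is a covariate below, its effect is therefore taken from the 6W heart libraries alone and carried over to muscle. The change with age differed between heart and muscle for 2087 of 14163 genes (14.7%), with a more positive change in heart for 1285 (9.07%) and a more negative one for 802 (5.66%). Under total-count scaling the split was 955 and 1307, with a median shift of -0.14.

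Plvap stood at 338 ± 80.2 CPM at P1 and 42.6 ± 20.2 CPM at 6W in heart, and 548 ± 73.7 CPM at P6 and 565 ± 196 CPM at 6W in muscle (SD, n = 4, 5, 5 and 4). It fell in heart, with a log2 change of 0.04 in muscle, and the difference in log2 change, heart minus muscle, was -3.03 ± 0.39 (SE, adjusted p = 3.05e-05). Npr3 was at 99.4 ± 29.3 CPM at P1 and 11.3 ± 2.88 CPM at 6W in heart, and 12.2 ± 2.14 CPM at P6 and 34.4 ± 8.05 CPM at 6W in muscle, a fall in heart and a rise in muscle, with a difference of -4.64 ± 0.31 (SE, adjusted p = 1.95e-08). The changes in heart were more positive for Cxcl12 (difference 3.10 ± 0.33 (SE, adjusted p = 2.9e-06)), Cd36 (1.51 ± 0.19 (SE, adjusted p = 2.13e-05)), Car4 (1.06 ± 0.28 (SE, adjusted p = 0.0142)) and Kdr (1.01 ± 0.21 (SE, adjusted p = 0.00298)). Apln fell in both tissues and less in heart, with a difference of 2.48 ± 0.24 (SE, adjusted p = 1.5e-06). For Abcg2 the difference was -0.53 ± 0.15 (SE, adjusted p = 0.0189), with a log2 rise of 0.75 in heart and 1.28 in muscle, and it was not called with the run as a covariate (-0.49). Of the 30 mitosis genes, 0 were called by edgeR for a difference between the tissues (1 had an unadjusted p below 0.05), with medians of -4.58 in heart and -4.56 in muscle. Of the 30 DNA replication genes, 7 changed more negatively in heart and none more positively, with medians of -2.75 in heart and -2.15 in muscle, and the 7 became 4 without P1 heart library 3.

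Of the lists, the change in heart was more positive for 11 of 22 arterial genes, 7 of 19 basement membrane genes and 6 of 14 VEGF and angiopoietin genes, with none more negative in these 3. Medians in heart and muscle were 1.02 and 0.37 for arterial genes and 0.88 and 0.18 for VEGF and angiopoietin genes. For basement membrane genes both were negative, at -0.55 in heart and -1.06 in muscle. Of 26 immediate early and heat shock genes, 16 were more positive in heart and none more negative, with medians of 1.47 in heart and -0.02 in muscle. With the run as a covariate the 16 became 14, with 2 more negative, and with a replicate block 9. Of 29 interferon genes, 8 were more negative in heart and 1 more positive, with medians of 1.16 in heart and 1.99 in muscle, and the 8 became 5 with the run as a covariate. The 15 MHC class I genes differed in 1 case, with medians of 2.12 and 2.35.

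**Figure D4:**
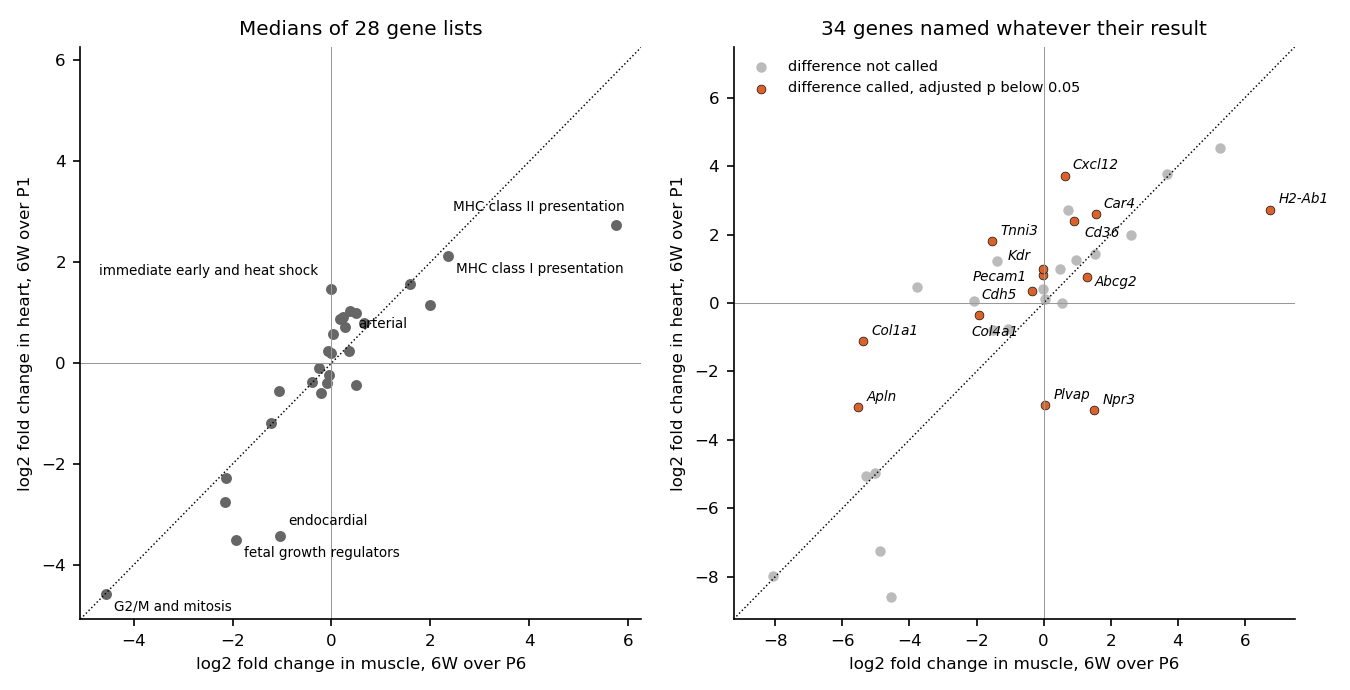
Log2 fold change with age in heart (6W over P1, vertical) against muscle (6W over P6, horizontal), for the medians of 28 gene lists (left) and for 34 genes named whatever their result (right), with a dotted line of equal change. Orange points are the 14 genes whose difference between tissues was called. Plvap and Npr3 lie below the line and Cxcl12 above it, while the mitosis list lies near it with medians of -4.58 and -4.56.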

How the data were processed

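RNA of sorted heart endothelial cells was sequenced, and groups and replicate numbers came from the source names in the labels. The deposited table holds unnormalized counts of 15569 genes; per the submitters' processing notes, the authors used STAR and featureCounts on mm10 and edgeR, with versions not given in the sources used here. Sources differ on the library kit, an RNA capture kit in the labels and a low-input, full-length cDNA kit in the deposited run sheets. Coding reads lay on both strands alike (51.8 to 52.3% sense), so overlapping and antisense genes cannot be told apart, and near-identical copies are uncertain. Percentages of reads by mapping class come from the deposited mapping statistics, and the RNA integrity number, a score, from the deposited run sheets, per the file headers.

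Counts of the 9 libraries were filtered with filterByExpr (13324 genes kept), scaled by TMM and tested with edgeR 4.0.16 (R 4.3.3), a quasi-likelihood F test without covariates. Genes were called at a Benjamini-Hochberg adjusted p below 0.05, and the standard error (SE) of a log2 fold change is its size over the square root of F. Overlap between the ages was judged on log2 CPM with a prior count of 2. Ratios of genes with 1 to 3 counts in 1 age carry 95% Poisson intervals, and floors are 3 counts over a group; both cover counting error only. The run difference was tested in a fit of 3 groups, and heart minus muscle in a fit of 4 groups (18 libraries). Alternatives were another scaling, filter or test (DESeq2 1.42.0), the run, RNA integrity or Ddx3y RNA as covariates, a replicate block, P1 library 1 included, all TdTomato- libraries in 1 fit, and each library left out in turn. The 2 alternatives on Ddx3y RNA were chosen after seeing the data. In a simulation of the age comparison on 13114 genes, 63% of genes changed 2-fold and 93% of those changed 4-fold were recovered. Only 100 genes were changed at each size, a far smaller share than the 50.9% called in the data, so these recoveries need not hold for the data. No replicate pair agreed within sampling noise (chi-square per degree of freedom at least 19.6).

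The members and the 39 gene lists were chosen with earlier results of these data known. Named genes (147, of which 144 were tested and 139 called) were a fixed set, the 12 largest rises and falls, and called members of the lists. Of each endothelial list up to 3 called members with the smallest p were taken, and of each other list 2. The 5 largest differences between heart and muscle in each direction were chosen separately, and some of them are also in the 147. Unnamed transcripts were skipped. Hbb-bs, in the fixed set, is not reported. Promoter windows are those of RefSeq on GRCm38.p6, matched by symbol.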

Additional observations from a re-analysis of the deposited data

Results flagged for a closer look

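In 22 of 320 sets of library values, of 1 named gene or marker sum in 1 age, the highest or lowest library stood apart from the others, measured on log2 CPM by its gap relative to the range. Chance flags about 1 in 20 such sets. Near the detection limit, 1 library was higher than the rest for Dlk1 in 6W library 4 (0.115 CPM, others 0), Cd74 in P1 library 5 (1.33 CPM, others 0.0768 to 0.119), Igf2bp1 in 6W library 1 (0.0468 CPM, others 0), Add2 in 6W library 4 (0.631 CPM, others 0 to 0.0468), Pbld1 in P1 library 5 (0.0785 CPM, others 0), Slc1a1 in P1 library 4 (0.0883 CPM, others 0) and Vtn in P1 library 3 (0.0768 CPM, others 0). At higher levels, 1 library was above the others for Dll4 in 6W library 6 (532 CPM, others 413 to 443), Jag2 in P1 library 5 (201 CPM, others 172) and the summed leukocyte markers in 6W library 6 (61.8 CPM, others 9.88 to 16.6). The lowest library stood apart for Plvap in P1 library 2 (227 CPM, others 382 to 391), H2-Ab1 in 6W library 1 (5.67 CPM, others 9.85 to 12.3), Nepn in P1 library 2 (0.0398 CPM, others 0.927 to 1.19), Cdk4 in P1 library 5 (325 CPM, others 442 to 471), Sema3g in P1 library 3 (7.98 CPM, others 16.3 to 17.3), Fzd4 in 6W library 1 (167 CPM, others 247 to 281), Ndrg1 in P1 library 4 (173 CPM, others 220.1 to 223), Insig1 in 6W library 4 (33.5 CPM, others 52.4 to 57.8), Abcb1b in P1 library 3 (7.87 CPM, others 10.6 to 10.9), Postn in P1 library 2 (192 CPM, others 246 to 254), Vtn in 6W library 4 (1.26 CPM, others 6.05 to 6.95) and Krt19 in 6W library 6 (0.488 CPM, others 2.03 to 3.39). Leaving each of the 9 libraries out in turn gave 5922 to 6694 genes called with age, of which 5813 to 6342 were among the 6788.

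By a test of the difference, the change with age differed between heart and muscle for 14 of 34 genes named whatever their result. Over all genes tested the share was 14.7%. The 5 largest differences in each direction, given first, were picked among called genes. Other named genes are not counted here. In log2 change, heart minus muscle, the 5 most negative fitted values were those of Gal (-13.12), Xist (-10.48), Col26a1 (-8.62), Tro (-7.44) and Capn6 (-6.83). Col26a1 and Tro had no count in any 6W heart library, Gal none in 6W heart or P6 muscle and Tnnt2 none in 6W muscle, so their fitted values are no bounds and set no order of size. For Gal, a neuropeptide gene near 0 in heart, the value came from the 6W muscle libraries, at 35.7 CPM in library 2 and 1.87 to 6.11 CPM in the others. For Xist, the libraries with its RNA differ between the groups. The 5 most positive fitted values were those of Ngp (11.80), Tnnt2 (8.36), C1s1 (7.09), Pbld1 (6.21) and Slc1a1 (5.82). Ngp, a neutrophil granule gene, was at 9.19 CPM in 6W heart library 6 and at 35.6 and 16.7 CPM in P6 muscle libraries 4 and 5. Of the genes named whatever their result, the difference was negative for Abcg2 (-0.53), Plvap (-3.03), Npr3 (-4.64) and H2-Ab1 (-4.01). It was positive for Pecam1 (0.83), Cdh5 (0.70), Kdr (1.01), Cd36 (1.51), Apln (2.48), Cxcl12 (3.10), Car4 (1.06), Col4a1 (1.56), Tnni3 (3.36) and Col1a1 (4.26). With the run as a covariate, Gal, Xist, Abcg2, Cdh5 and H2-Ab1 were no longer called.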

How the results depend on the processing

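The count of 6788 genes called with age ran from 4634 with RNA integrity as a covariate to 7381 under total-count scaling over 13 alternatives, and from 5922 to 6694 with 1 library left out. It was 6783 with RLE factors, 7096 with DESeq2, 6529 with the run as a covariate, 6567 within the shared run, 6653 with P1 library 1, 6272 with Ddx3y RNA as a covariate and 6056 in the libraries without it. The run difference within 6W (209 genes) rose to 816 with DESeq2 and ran from 3 to 388 with 1 library left out. Heart minus muscle (2087 genes) ran from 1608 to 2462 with 1 library left out.

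No named gene called with age changed sign. Of the 4 that were not called and did, the log2 fold change of Dbp was -0.24 under total-count scaling, -1.33 with the run as a covariate, -1.32 within the shared run, -2.29 with RNA integrity as a covariate, -1.69 with the block, -1.15 with Ddx3y RNA as a covariate and -2.21 in libraries without it, and it ran from -1.53 (without 6W library 6) to 0.29 (without 6W library 5) with 1 library left out, -0.08 without P1 library 5 among them. Myh6 was at -0.20 with the run and -0.19 within the shared run. Myl4 was at -0.14 (total count), -0.036 (run), -0.021 (shared run), -0.20 (P1 library 1) and -0.0078 (block), and ran from -0.026 (without P1 library 2) to 0.35 (without P1 library 5). Myl7 was at -0.18, -0.66, -0.64 and -0.45 in the first 4 of these, and ran from -0.44 (without 6W library 5) to 0.44 (without P1 library 5), with -0.21 without P1 library 2. The cause was not tested.

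Replicate numbers did not pair the ages: deviations of same-numbered libraries correlated at 0.051, 0.083 and -0.125 over 9332 genes. With the replicate block 5538 genes were called with age and 1699 for heart minus muscle.

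Limits are the small number of libraries, an unknown number of animals per library, different sexes and RNA integrity between the ages, and 2 runs at 6W. Genes at a few counts give ratios with wide counting intervals.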
